A study of Arabidopsis thaliana with 64 samples.

Results

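HHO1 (AT3G25790), HHO2 (AT1G68670) and HHO3 (AT1G25550) are 3 transcription factor genes of the HRS1/HHO family of Arabidopsis thaliana. They were chosen by name, through the gene annotation of the array platform, with earlier results of these data known. They are 3 of the 13356 genes that this annotation names. Each had 1 probe set, the group of short probes that measures 1 transcript: 257645_at for HHO1, 262284_at for HHO2 and 255734_at for HHO3.

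HRS1/HHO proteins, also called NIGT1 proteins, are DNA-binding proteins of the GARP class that act as transcriptional repressors. In Arabidopsis roots their genes are known to be induced by nitrate, under control of NLP transcription factors. The proteins repress genes of high-affinity nitrate uptake and take part in the crosstalk between nitrate supply and the phosphate starvation response. HRS1 and HHO1 are also known to repress primary root growth when phosphate is lacking and nitrate is present.

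RNA came from roots of plants grown on 0.5 mM ammonium succinate with 3 mM sucrose and then held for 24 h without nitrogen. The sample labels give 14 to 16 days of growth and the series design 12 to 14 days. The roots were collected after 4 h on a medium holding any combination of 5 signals: nitrate, ammonium, the auxin IAA (500 nM), the cytokinin kinetin (500 nM) and the stress hormone abscisic acid (ABA, 1 µM). KCl and DMSO were the mock controls. This gave 64 arrays in 32 groups of 2, with each of 4 nitrogen supplies (none, ammonium only, nitrate only, both ions) met by each of 8 hormone combinations. Nitrate and ammonium were given at 1 mM alone and at 0.5 mM each together, so on both ions the presence of the second ion and the lower dose of the first cannot be told apart.

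Values are scaled intensities, 1 per probe set and array. Array medians ranged from 103 to 304 and duplicate arrays correlated at 0.724 to 0.897 across probe sets. The number of arrays limits the precision. The labels do not say that duplicates came from separate cultures, so p-values measure only the spread between arrays, which may be technical. Of the 9 root tissue markers, 3 had a named probe set. Their median intensity over the arrays was 5220 for the ER body enzyme PYK10, 613 for the root hair expansin EXPA7 and 690 for EXPA18. Of 7 green tissue markers, 2 were named, RCA with a median of 348 and LHCB4.1 with 155. Because whole roots were used, fewer cells of a type and less RNA per cell cannot be told apart.

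HHO1 carried the strongest nitrate response of the 3 genes. Without nitrogen its intensity on 16 arrays ran from 23.8 to 288, with a median of 134. On nitrate only it ran from 151 to 815, with a median of 481. On both ions it ran from 74.3 to 476, with a median of 303. Of the 16 nitrate-only arrays, 15 lay above every array without nitrogen, and the exception was replicate 2 with nitrate and all 3 hormones, at 151. The groups overlapped through this array, and 0.0132% of all probe sets had every nitrate-only array above every array without nitrogen. On ammonium only the HHO1 median was the lowest, with a range from 12.3 to 206 and a median of 89.0. Of the HHO1 values, 11 of 16 without nitrogen and 14 of 16 on ammonium only lay below the median of their own array, against 0 of 16 on nitrate only.

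**Figure D1:**
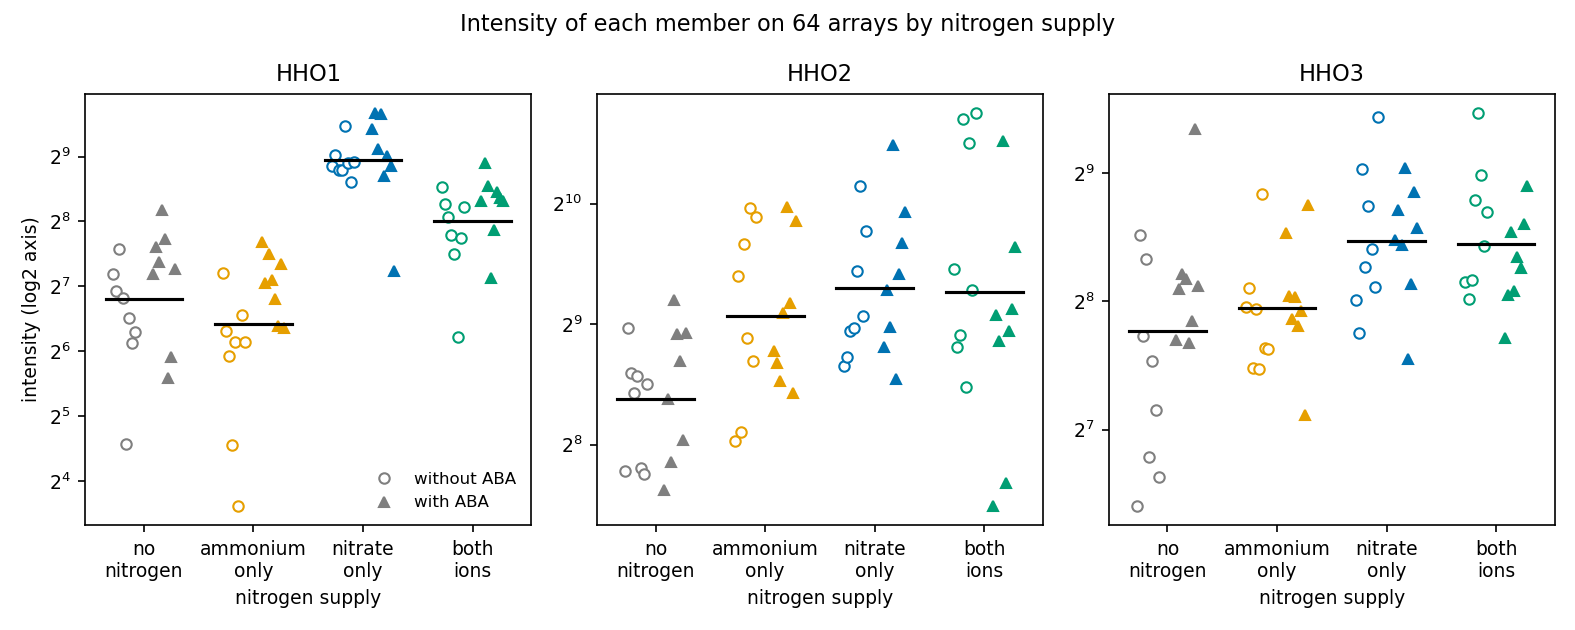
Intensity (log2 axis) of HHO1, HHO2 and HHO3 on all 64 arrays by nitrogen supply, with open circles for arrays without ABA, filled triangles for arrays with ABA and a bar at the mean of log2 values. HHO1 on nitrate only has the highest median (481, against 303 on both ions, 134 without nitrogen and 89.0 on ammonium only) and overlaps both ions, while the 4 clouds of HHO2 and of HHO3 overlap widely.

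HHO1 rose on nitrate only by 2.12 ± 0.24 (log2 difference ± SE, 16 arrays against 16, adjusted p = 2.77e-07), a 4.36-fold change, and was higher in 8 of 8 hormone backgrounds. In this comparison 0.594% of the 22746 probe sets passed at an adjusted p under 0.05, and HHO1 was the only one of the 3 genes to pass. It stood at rank 17 by p. All adjusted p-values of single genes come from 1 limma fit across all probe sets, adjusted by the Benjamini-Hochberg method. On both ions HHO1 rose by 1.20 ± 0.24 over no nitrogen (adjusted p = 0.00332), where 1.38% of probe sets passed, and it was higher in 8 of 8 backgrounds. The nitrate-only and both-ion comparisons share the arrays without nitrogen.

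Against ammonium only, HHO1 was higher by 2.504 ± 0.24 on nitrate only (adjusted p = 2.22e-08), the third probe set by p in a comparison where 0.391% passed. It was higher by 1.58 ± 0.24 on both ions than on ammonium only (adjusted p = 0.000297), where 0.295% passed. With both ions it stood 0.92 ± 0.24 below nitrate only on the log2 scale, lower in 7 of 8 backgrounds, and did not pass (adjusted p = 0.233). That comparison called 0.0484% of probe sets, and HHO1 was at rank 52. With a pseudocount of 64 in place of 1 this difference passed (log2 difference -0.77, adjusted p = 0.0142). Ammonium only against no nitrogen, which called 0.462% of probe sets, gave -0.38 ± 0.24 (adjusted p = 0.546), a value whose 95% interval ran from -0.87 to 0.11.

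HHO2 was measured at higher intensities, with a range of 180 to 1723 over the arrays. Without nitrogen its 16 arrays lay between 197 and 588 (median 353). On ammonium only they lay between 261 and 1002 (median 509). On nitrate only they lay between 373 and 1438 (median 579), and on both ions between 180 and 1723 (median 549). All 4 supplies overlapped, and the arrays on both ions were the most spread out. Nitrate only against no nitrogen gave 0.92 ± 0.27 and did not pass (adjusted p = 0.142), although HHO2 was higher in 8 of 8 backgrounds. Both ions gave 0.88 ± 0.27 (adjusted p = 0.106, higher in 7 of 8) and ammonium only 0.69 ± 0.27 (adjusted p = 0.302, higher in 8 of 8). The difference between nitrate only and ammonium only was 0.23 ± 0.27 (adjusted p = 0.964). With each array's median as a covariate, nitrate only passed at 0.69 (adjusted p = 0.0126) and both ions at 0.59 (adjusted p = 0.0325). With a replicate block, the replicate number as a term of the fit, nitrate only passed at 0.92 (adjusted p = 0.011) and both ions at 0.88 (adjusted p = 0.00956). After quantile normalization both ions passed (0.97, adjusted p = 0.0385), but nitrate only did not. The HHO2 calls thus changed with the processing, including how replicates and array medians were treated.

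HHO3 lay between 84.9 and 708. Its intensity ran from 84.9 to 650 without nitrogen, with a median of 221, and from 138 to 458 on ammonium only, with a median of 244. On nitrate only its range was 188 to 693 (median 352) and on both ions 210 to 708 (median 335). The medians of the supplies with nitrate were the higher ones, but the ranges overlapped. Nitrate only gave 0.70 ± 0.19 over no nitrogen (adjusted p = 0.0948, higher in 7 of 8 backgrounds) and both ions 0.68 ± 0.19 (adjusted p = 0.0661, higher in 7 of 8). Ammonium only gave 0.18 ± 0.19 (adjusted p = 0.735). Nitrate only and both ions differed by less than the spread between arrays (log2 difference -0.02, 95% interval -0.41 to 0.37).

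The 32 arrays with nitrate were set against the 32 without it, as the mean over 16 matched backgrounds. In this comparison 2 of the 3 genes rose, where 0.884% of all probe sets passed and 0.545% rose. As the genes were chosen with earlier results of these data known, these shares are a description only. The averaged difference was 1.85 ± 0.17 for HHO1 (adjusted p = 1.41e-09), positive in 16 of 16 backgrounds, and 0.60 ± 0.13 for HHO3 (adjusted p = 0.0131), positive in 14 of 16. HHO2 stood at 0.56 ± 0.19 (adjusted p = 0.244, higher in 14 of 16), and passed at 0.56 with the replicate block (adjusted p = 0.0351). In 8 of the 16 backgrounds adding nitrate also lowered ammonium from 1 to 0.5 mM. With the 3′ to 5′ ratio of an actin control set as a covariate, the HHO3 call held for 1 actin set (0.57, adjusted p = 0.0458) and was lost for the other, which was chosen after seeing the data (0.54, adjusted p = 0.0701). The HHO3 call was kept when any 1 of the 64 arrays was left out.

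**Figure D2:**
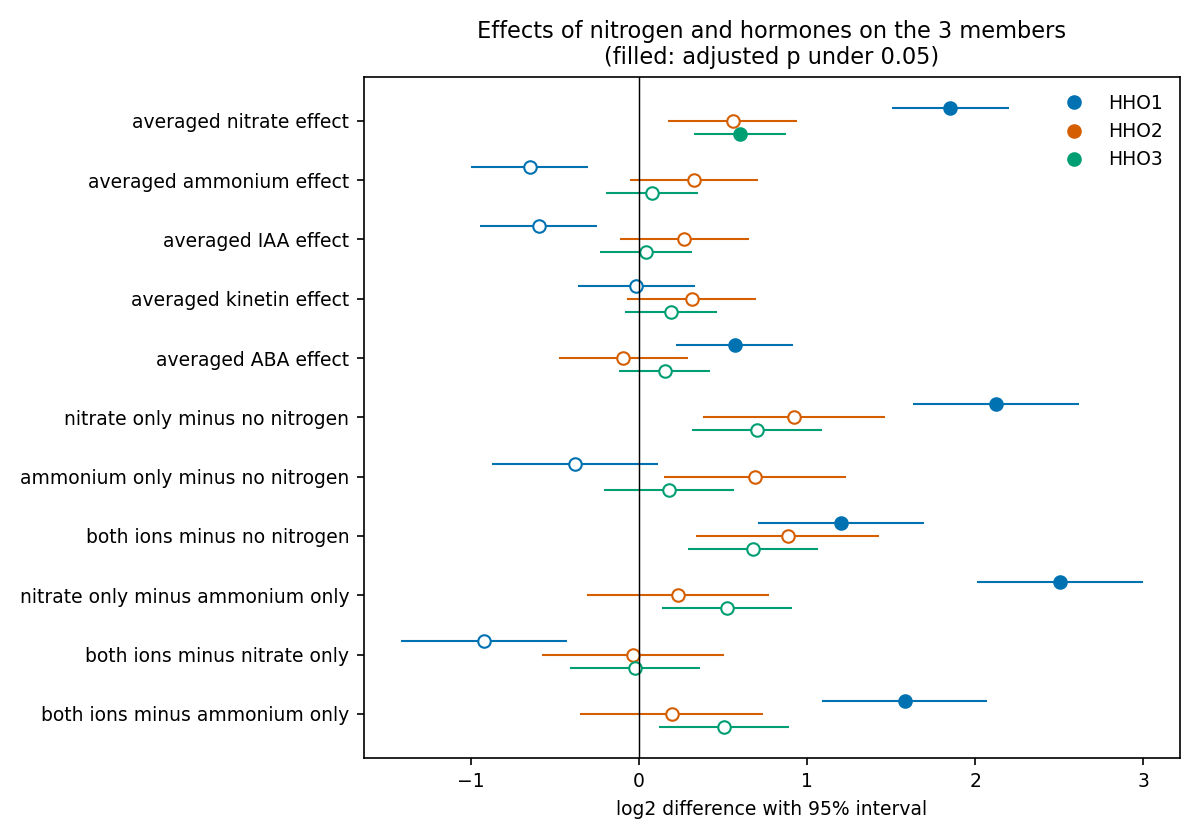
Log2 differences of HHO1, HHO2 and HHO3 for the 5 signals averaged over 16 backgrounds and for 6 comparisons of nitrogen supply, with 95% intervals and filled points where the adjusted p is under 0.05. HHO1 is far right of the other genes in every comparison of nitrate only with a supply without nitrate, and left of them for ammonium and IAA.

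Whether the members differed in response was tested on the log2 difference between 2 genes on each array, with labels permuted within each background (permutation test, 100000 resamples, two-sided, 18 comparisons). The nitrate response of HHO1 exceeded that of HHO2 by 1.29 ± 0.19 and that of HHO3 by 1.25 ± 0.14 (SE over 16 backgrounds, both permutation p = 1e-05, the smallest the resamples can give, adjusted p = 9e-05). HHO1 responded more than HHO2 in 15 of 16 backgrounds and more than HHO3 in 16 of 16. For nitrate only against no nitrogen, HHO1 exceeded HHO2 by 1.20 ± 0.24 (permutation test, adjusted p = 0.000495) and HHO3 by 1.42 ± 0.19 (adjusted p = 0.00018), each in 8 of 8 backgrounds. HHO2 and HHO3 differed by -0.05 ± 0.18 in the averaged nitrate effect (permutation test, adjusted p = 0.813), within the spread over backgrounds.

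HHO1 also differed from both other genes for ammonium and IAA, and from HHO2 for ABA, whereas no pair passed for kinetin and HHO2 and HHO3 passed against each other for no signal. For ammonium, HHO1 gave an averaged effect of -0.65 ± 0.17 (adjusted p = 0.0756, lower in 13 of 16 backgrounds), a comparison in which 0.506% of probe sets passed. HHO2 gave 0.33 ± 0.19 and HHO3 0.08 ± 0.13. No member passed by itself, but HHO1 lay below HHO2 by 0.98 ± 0.20 (permutation test, adjusted p = 0.00115, 15 of 16 backgrounds) and below HHO3 by 0.73 ± 0.22 (adjusted p = 0.00573, 14 of 16). Here too, in 8 of 16 backgrounds the added ion lowered nitrate from 1 to 0.5 mM.

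IAA gave HHO1 an averaged effect of -0.60 ± 0.17 (adjusted p = 0.0504, lower in 12 of 16 backgrounds), just outside the threshold, in a comparison that called 2.65% of probe sets. The corresponding values were 0.27 ± 0.19 for HHO2 and 0.04 ± 0.13 for HHO3. HHO1 differed from HHO2 by -0.87 ± 0.22 (permutation test, adjusted p = 0.00543) and from HHO3 by -0.64 ± 0.24 (adjusted p = 0.0161). On media without nitrogen, 8 HHO1 arrays without IAA lay between 113 and 288 (median 156), and 8 with IAA between 23.8 and 213 (median 74.1). The difference there was -1.096 ± 0.34 (adjusted p = 0.227), beside a median of -0.17 over all probe sets, and on the other supplies it was between -0.36 and -0.49. Whether the IAA difference varied with nitrogen supply was not shown by any test. The lowest HHO1 array with IAA was on ammonium only, at 12.3.

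Kinetin gave -0.02 ± 0.17 for HHO1, 0.31 ± 0.19 for HHO2 and 0.19 ± 0.13 for HHO3, and no member passed (adjusted p from 0.693 to 1.000), where 2.07% of probe sets did. The 95% interval for HHO1 ran from -0.37 to 0.33. The 3 differences between genes ran from -0.33 to 0.12 and did not pass (permutation test, adjusted p from 0.303 to 0.529). The largest kinetin difference of HHO2 was on both ions, 0.92 ± 0.38 (adjusted p = 0.367). There the arrays without kinetin ran from 180 to 1449 and those with it from 465 to 1723.

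ABA raised HHO1 by 0.57 ± 0.17 (adjusted p = 0.0116, 13 of 16 backgrounds). With ABA 27.3% of probe sets passed and 8.48% rose, and the median of all probe sets was -0.19, so a call is less unusual here than for nitrate. HHO3 stood at 0.15 ± 0.13 (adjusted p = 0.434). HHO2 stood at -0.09 ± 0.19 (adjusted p = 0.753), which was above 0 with the array median (0.26) or the actin ratio (0.03) as a covariate. HHO1 exceeded HHO2 by 0.66 ± 0.22 (permutation test, adjusted p = 0.0306, 14 of 16 backgrounds), which no longer passed without 1 array, for 13 choices of it (0.55 to 0.77 over the 64 arrays left out in turn), and exceeded HHO3 by 0.42 ± 0.23 without passing (adjusted p = 0.140). Of the 3 named root markers, 2 fell with ABA, the root hair expansins EXPA7 and EXPA18 (-0.51 and -0.47), where 18.8% of all probe sets fell. The other root marker, PYK10, did not pass. The chlorophyll-binding gene LHCB4.1 rose (0.84), while the other named green gene, RCA, stood at -0.05 (adjusted p = 0.859). The part of these markers in the HHO1 value was not tested.

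Taken by nitrogen supply, the ABA difference of HHO1 passed on ammonium only. The 8 ammonium arrays without ABA lay between 12.3 and 147 (median 70.5), and the 8 with ABA between 82.1 and 206 (median 134). The arrays overlapped, and the difference was 1.20 ± 0.34 (adjusted p = 0.0283), in a comparison that called 5.74% of probe sets. It was the only one of 36 tests of a hormone within a supply to pass in these genes, beside 2.58% of tests over all probe sets. The call was lost without replicate 2 of ammonium alone or with kinetin, IAA, or IAA and kinetin, and without replicate 1 of any of the 4 ammonium groups with ABA (0.89 to 1.15). With a pseudocount of 64 it was 0.62 (adjusted p = 0.0770). The ABA difference of HHO1 was 0.60 ± 0.34 without nitrogen, 0.44 ± 0.34 on both ions and 0.04 ± 0.34 on nitrate only. The difference between ammonium only and these supplies was not tested, and 1 call in 36 is near the share over all probe sets.

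HHO1 passed for nitrate only against no nitrogen both with and without each hormone. Nitrate only minus no nitrogen was 2.45 with IAA and 1.80 without, 1.80 with kinetin and 2.45 without, and 1.85 with ABA and 2.403 without. All 6 passed, in comparisons that called 0.299% and 0.233% of probe sets with and without IAA, 0.369% and 0.189% with and without kinetin, and 0.127% and 0.466% with and without ABA. They held when any array was omitted, but the call with kinetin was lost without the 6 arrays of most extreme median (1.61, adjusted p = 0.0746). With 1 replicate alone each group holds 1 array, so those fits used the model of main effects and pairs in place of group means. On all 64 arrays that model kept the 6 calls. With 1 replicate alone the number of arrays differs as well. Those fits are thus not a like-for-like check of the calls, and only the sizes of the responses are given. On replicate 2 alone the 5 responses other than that without ABA ran from 1.62 to 2.31. On replicate 1 alone the response with ABA was 1.97. In single backgrounds of the main fit, 2 arrays against 2, nitrate only minus no nitrogen ran from 1.46 with all 3 hormones to 3.62 ± 0.69 with IAA (adjusted p = 0.0222). That last was the only one of 81 such tests of the 3 genes to pass, where 0.0747% of probe sets passed (0.0676% over all 27 such comparisons). The HHO1 arrays behind it read 23.8 and 90.7 without nitrogen and 710 and 479 with nitrate. The call was lost without replicate 1 of IAA alone (2.67, adjusted p = 0.324) or without replicate 1 or 2 of nitrate with IAA (3.33 and 3.90).

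HHO3 passed for both ions against no nitrogen on media without ABA. This call was picked from a set of comparisons of nitrogen supplies with and without each hormone. A share pooled over that set was not computed. Without ABA it ran from 84.9 to 366 without nitrogen (8 arrays, median 164) and from 259 to 708 on both ions (median 380), a difference of 1.20 ± 0.27 (adjusted p = 0.0142) where 0.853% of probe sets passed. With ABA the values were 204 to 650 (median 276) and 210 to 477 (median 316), a difference of 0.17 ± 0.27 (adjusted p = 0.976). The call without ABA was lost without replicate 1 of the mock group (0.93, adjusted p = 0.104), replicate 1 of kinetin alone or IAA alone, or replicate 2 of both ions with kinetin (1.103 to 1.12). The difference between these 2 HHO3 responses was not itself tested. The interaction of ABA with the averaged nitrate effect, another contrast, was -0.58 ± 0.27 (adjusted p = 1.000, unadjusted p = 0.0394).

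None of 39 interaction tests of the 3 genes passed in limma. Over all probe sets 0.00541% of these tests passed. The interaction of nitrate and ammonium was -0.54 ± 0.34 for HHO1, -0.73 ± 0.38 for HHO2 and -0.20 ± 0.27 for HHO3. Arrays were simulated with the spread of each probe set, but without differences shared by the probe sets of an array. There the test of the nitrate and ABA interaction found 4% of interactions of size 1 (log2) and 68% of size 2, each over 50 probe sets. Interactions of size 1 were thus mostly missed in the simulation, which did not cover the other interactions.

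**Figure D3:**
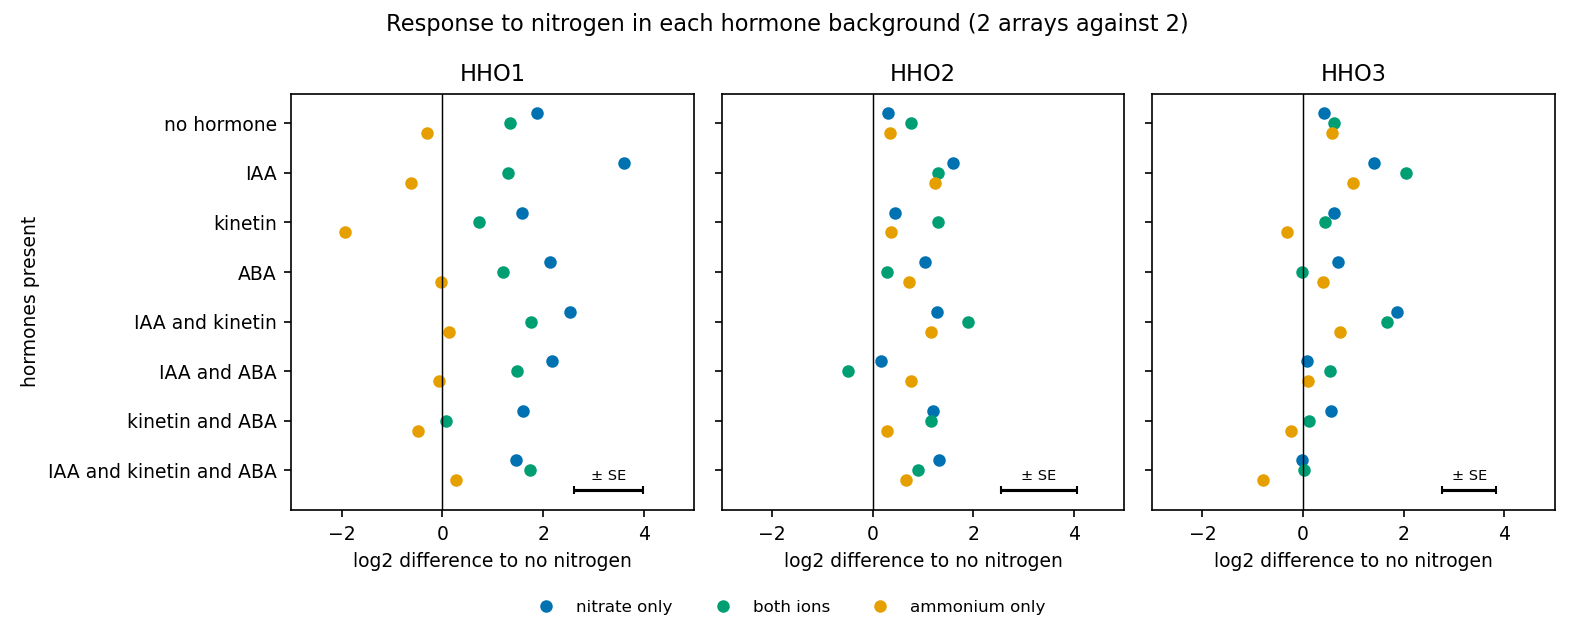
Log2 difference to no nitrogen for nitrate only, both ions and ammonium only in each of the 8 hormone backgrounds, 2 arrays against 2, with the common SE drawn at the foot of each panel. For HHO1 nitrate only lies between 1.46 and 3.62 in every background and ammonium only right of 0 in 2 of 8, whereas the points of HHO2 and HHO3 overlap across the supplies.

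The order of the 32 groups separated the genes further. For HHO1 the highest group was nitrate with ABA, at 688 and 815 on its 2 arrays, followed by nitrate with kinetin and ABA at 553 and 803. The lowest was ammonium with IAA, at 70.5 and 12.3. The range of group means was 4.61 on the log2 scale, and 15 of the 16 highest groups held nitrate. For HHO2 the highest group was both ions with IAA and kinetin, at 624 and 1723, the lowest was ABA without nitrogen, at 197 and 333, and the range was 2.01. For HHO3 the highest was both ions with IAA, at 708 and 506, the lowest was IAA and kinetin without nitrogen, at 142 and 99.3, and the range was 2.32. For HHO2 and for HHO3, 12 of the 16 highest groups held nitrate. None of the 31 gaps between neighbouring groups exceeded the pooled SD of duplicates in any gene, the largest being 0.65, 0.21 and 0.45 for HHO1, HHO2 and HHO3, so the exact order of neighbours is not resolved.

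**Figure D4:**
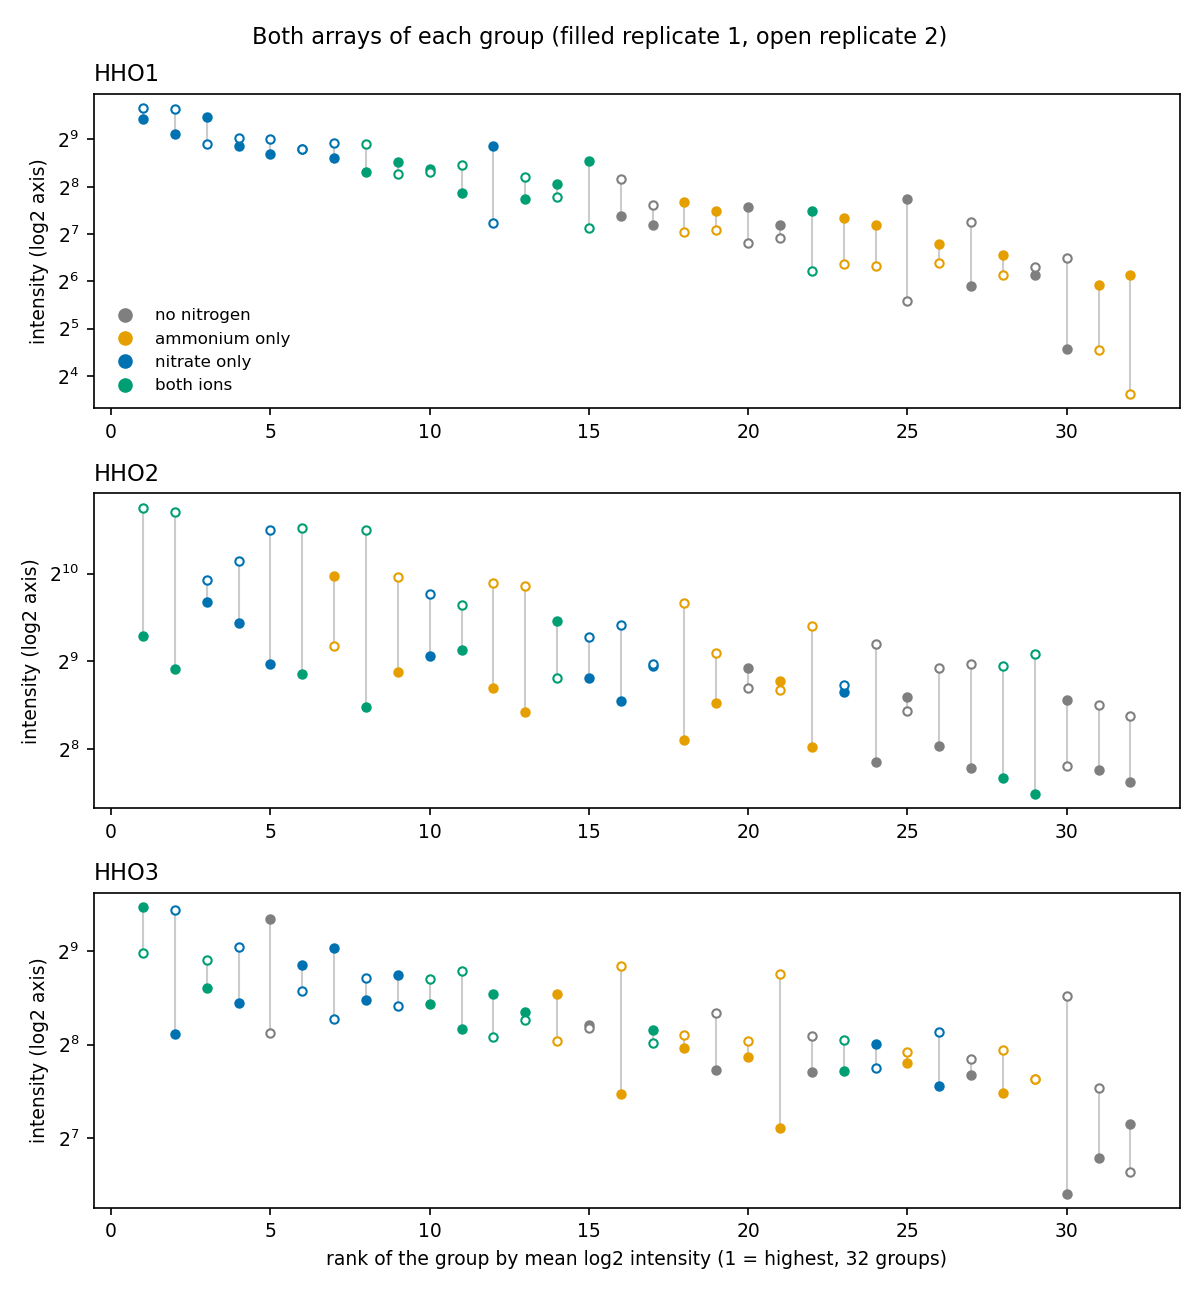
The 2 arrays of each group in order of mean log2 intensity (log2 axis, filled for replicate 1 and open for replicate 2), coloured by nitrogen supply. The 7 highest HHO1 groups all hold nitrate only, while the lines joining duplicates of HHO2 are long and open points lie mostly above filled ones.

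How the variation of each gene was divided differed. Nitrogen supply took 61.3% of the sum of squares of HHO1 over the 64 arrays, 22.9% of HHO2 and 24.9% of HHO3. Differences between duplicate arrays took 14.5%, 48.0% and 34.4%. Interactions of the signals took 13.6%, 21.5% and 36.6%, the largest share in HHO3, and these shares also hold spread between arrays. In HHO2, 24.0% of the total followed the replicate number, against 1.03% in HHO1 and 3.23% in HHO3. Over the 32 groups, duplicates of HHO2 differed by over 2-fold in 14 groups, HHO1 in 8 and HHO3 in 5. Replicate 2 was the higher HHO2 array in 26 of 32 groups, by a median of 0.81 on the log2 scale.

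The difference between duplicates of HHO2 moved with the difference between their array medians. Every array had the same trimmed mean of 500, so the array median is not a measure of overall brightness. Across the 32 groups, replicate 2 minus replicate 1 of HHO2 correlated with the same difference of the array median (Pearson r = 0.838, Spearman rho = 0.816, both permutation p = 1e-05, the smallest the resamples can give, adjusted p = 3e-05 over 3 genes). Without the 2 groups farthest from the median difference r was 0.796. For HHO1 r was 0.175 and rho 0.254 (permutation p = 0.337 and 0.161), and without the 2 farthest groups r was 0.0681. For HHO3 r was 0.0655 and rho 0.0458 (permutation p = 0.723 and 0.803). The HHO2 value was at the 99.1 percentile of all probe sets, whose median r was 0.301. The array median was the higher of the duplicates in replicate 2 in 21 of 32 groups. Its mean on the log2 scale was 7.41 without nitrogen, 7.54 on ammonium only, 7.53 on nitrate only and 7.56 on both ions. The part of the array median in the HHO2 differences was not tested beyond the covariate values above.

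**Figure D5:**
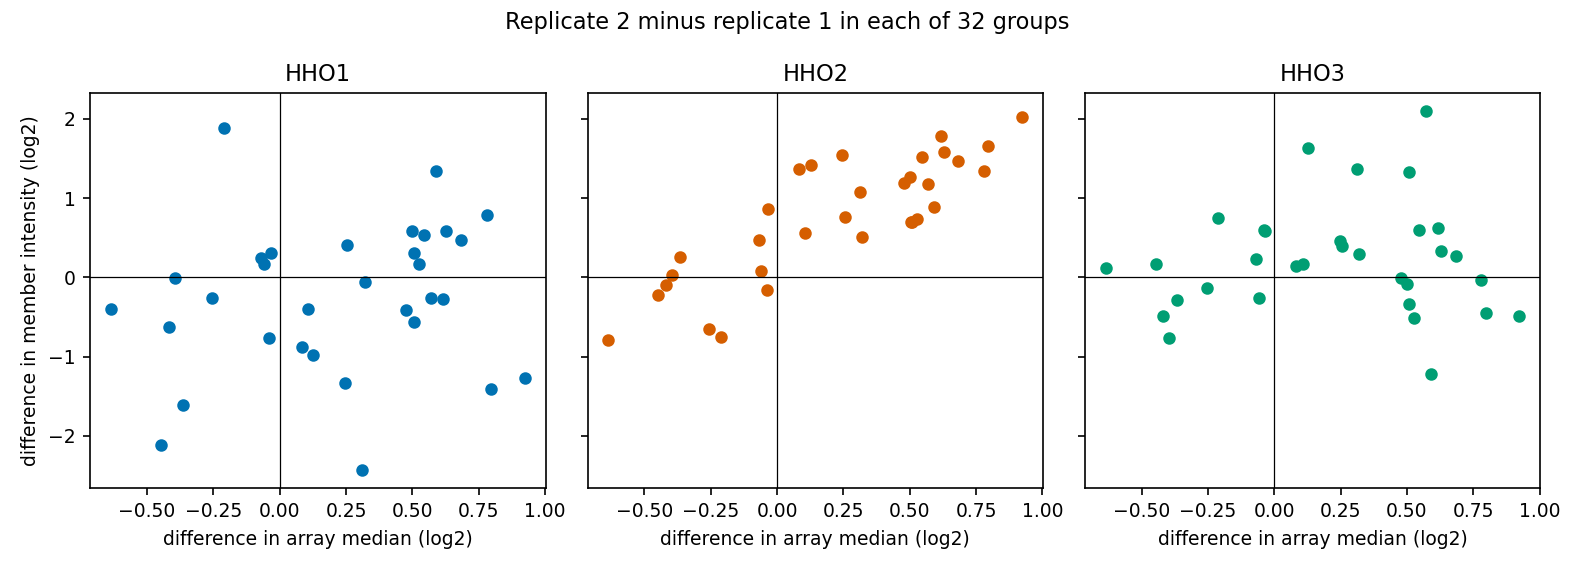
Replicate 2 minus replicate 1 of the log2 intensity of each gene against the same difference of the array median, 1 point for each of the 32 groups. HHO2 points follow a rising line (r = 0.838), and HHO1 and HHO3 points scatter without one.

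Across the 32 group means the likeness of the genes differed by pair. HHO2 and HHO3 correlated at 0.595, HHO1 and HHO3 at 0.498, and HHO1 and HHO2 at 0.258, a description over groups that share arrays and treatments. Among 13512 named probe sets ordered by this correlation, HHO2 stood at rank 1199 for HHO1, and HHO1 at rank 5128 for HHO2. For the other pairs the ranks ran from 14 to 371. Within a nitrogen supply, the correlation was 0.404 for HHO2 and HHO3, 0.0746 for HHO1 and HHO3, and -0.235 for HHO1 and HHO2.

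Among 13512 other named probe sets, the one most like HHO1 over the 32 groups was AT1G16170 (r = 0.843), and it also ranked first after quantile normalization, with a pseudocount of 64 and by Spearman correlation. AT1G61740 (r = 0.726), AT4G33960 (0.718), AT5G62720 (0.716) and AT1G67920 (0.687) came next. The probe sets most like HHO2 were AT3G52360 (r = 0.829), AT3G07910 (0.809), the plastid genes ccsA (0.804) and psbZ (0.793), and AT4G38780 (0.791). After quantile normalization these fell to ranks 9, 40, 8, 5 and 15. For HHO3 they were AT1G78050 (0.735), a phosphoglycerate mutase, AT4G36010 (0.729), AT3G07350 (0.721), AT5G26010 (0.697) and AT2G29620 (0.694). After quantile normalization these stood at ranks 1, 11, 2, 4 and 6, and the other 4 of HHO1 at ranks 10, 26, 8 and 21.

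Of the 7 genes of the HRS1/HHO family, 5 had a named probe set, among them the members HHO1, HHO2 and HHO3. Averaged over backgrounds 2 rose with nitrate, the members HHO1 and HHO3, where 0.545% of all probe sets rose. The median of the 5 was 0.56, beside 0.03 for all probe sets. This median is the value of HHO2, which did not pass, so it repeats the members. HHO5 and HHO6 stood at -0.21 ± 0.30 (adjusted p = 0.928) and -0.43 ± 0.25 (adjusted p = 0.706). With ABA 2 of the 5 rose, HHO1 and HHO5, where 8.48% of all probe sets rose. HHO5 rose by 0.96 ± 0.30 (adjusted p = 0.0162), a call lost with the array median as a covariate (0.53, adjusted p = 0.127) or the actin ratio (0.69, adjusted p = 0.0895).

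Few other genes of the pathway were named in the annotation used here. Of 17 genes of nitrate transport and assimilation 1 was named, the pentose phosphate enzyme PGD1, which makes reductant for assimilation. PGD1 rose on nitrate only by 1.46 ± 0.14 (adjusted p = 6.18e-09) and fell with ABA by 0.95 on the log2 scale (adjusted p = 9.56e-10), where 18.8% of all probe sets fell. Of 21 nitrate regulators 1 was named, NRG2, which did not pass for nitrate (0.04 ± 0.12) and fell with ABA by 0.54 (adjusted p = 0.000925). Of 7 reported targets of HRS1/HHO factors 1 was named, the high-affinity nitrate transporter NRT2.5, which these factors are known to repress. NRT2.5 stood at -0.31 ± 0.15 for nitrate (adjusted p = 0.605) and passed there with the array median as a covariate (-0.40, adjusted p = 0.0446). NRT2.5 fell with ABA by 1.13 (adjusted p = 3.03e-07) and with kinetin, where 0.756% of probe sets fell, by 0.56 (adjusted p = 0.0435), the kinetin call being lost without the 6 arrays of most extreme median (adjusted p = 0.0806). None of 9 phosphate starvation genes was named.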

How the data were processed

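Each of 64 root samples was measured on 1 Affymetrix array of 22810 probe sets. The authors deposited linear-scale intensities, 1 per probe set and array. Each array was scaled by the authors, since the mean after leaving out the lowest and highest 2% is 500 on every deposited array. Which software summarised the probes is not given in the sources used here. Control probe sets, 64 in number, were left out.

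Intensities were transformed as log2(value + 1), so fold changes are on that scale and understate changes of dim genes. No filter was applied. A limma fit (version 3.58.1, R 4.3.3) estimated the 32 group means on 22746 probe sets (32 residual and 3.83 prior degrees of freedom), with the Benjamini-Hochberg adjustment within each comparison and a threshold of 0.05. Differences between members were tested by permutation (numpy 2.4.6). The fit was tested on simulated data of 22746 probe sets. In the averaged nitrate effect it recovered 12%, 64% and 98% of changes of 0.5, 1 and 2. Among the probe sets given no change it made 3 false calls.

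Groups and doses came from the labels. The platform annotation gives 1 gene for 13513 probe sets, and 13436 matched RefSeq names (TAIR10.1). Genes named were the members, the members of 7 gene lists, and the 5 probe sets most like each member by Pearson correlation. The members and lists were chosen with earlier results of these data known. Replicate numbers did not pair the samples in the main fit. Differences between duplicates correlated over 0.1 in 164 of 496 pairs of groups (median 0.0489, from -0.264 to 0.421). These correlations cannot exclude an effect of replicate number on single genes. In HHO2 the replicate number took 24.0% of the sum of squares. The mean array median (log2) was 7.40 for replicate 1 and 7.62 for replicate 2. Alternatives were other pseudocounts (16, 64), quantile normalization, covariates, a filter on the dimmest 40%, a replicate block, array weights, a model of main effects and pairs, and arrays left out.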

Additional observations from a re-analysis of the deposited data

How the results depend on the processing

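The HHO1 nitrate effects, averaged and nitrate only against no nitrogen, passed under every alternative run (averaged 1.33 to 1.97), including each array left out (1.78 to 1.93). The alternatives with 1 replicate only, with the replicate block and the array median together, and with the ratio of the other actin control set were chosen after seeing the data. The fits on 1 replicate only used the model of main effects and pairs, because 1 array per group leaves no spread around group means. Calls gained or lost there thus reflect a changed model as well as fewer arrays, and are not a like-for-like check of the main fit. Of the values under settings other than a left-out array, 628 kept direction and call, 35 gained a call, 24 lost one, 15 turned and 6 counts moved. Where a call changed, the cause was not tested. Small interactions may be missed with 2 arrays per group, and the part of background signal in the dim HHO1 values was not tested.

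The HHO1 ammonium effect passed with pseudocounts of 64 and 16 (-0.49 and -0.59), quantile normalization (-0.75), the dim filter (-0.65) and the replicate block with the array median as a covariate (-0.68). The HHO1 IAA effect passed with pseudocounts of 64 and 16 (-0.39 and -0.52), and at -0.60 with the array median, the dim filter, the replicate block and the model of pairs, and at -0.58 with the block and the median. The HHO1 kinetin effect was 0.0152 after quantile normalization and 0.0143 on replicate 2 alone. HHO1 with ABA did not pass on replicate 1 (0.49) or 2 (0.65) alone, nor did both ions against no nitrogen on replicate 2 (1.01) or both ions against ammonium on replicate 1 (1.22) or 2 (1.95). Ammonium against no nitrogen turned to 0.18 on replicate 1. Both ions against nitrate passed for HHO1 with a pseudocount of 64 (-0.77).

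HHO2 passed for averaged nitrate with the array median (0.42), the replicate block (0.56) and both (0.45). It passed for nitrate only with the array median (0.69), the replicate block and the model of pairs (0.92) and the block with the median (0.74). It passed for both ions with quantile normalization (0.97), the median (0.59), the block and the model of pairs (0.88), the actin ratio (0.97), replicate 2 (1.25) and the block with the median (0.65). Under the block with the median it passed for IAA (0.32), kinetin (0.34) and ammonium only (0.50). The ABA effect turned with the median (0.26), the actin ratio (0.0298) and both block and median (0.18). Both ions minus nitrate turned after quantile normalization (0.0604) and on replicate 2 (0.28), and both ions minus ammonium on replicate 1 (-0.0159).

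HHO3 lost averaged nitrate on replicate 1 (0.73) or 2 (0.47) alone and with the other actin set (0.54). HHO3 passed for nitrate only with the dim filter and the model of pairs (0.70), and for both ions with those and the block (0.68). Its IAA effect was -0.0018 and both ions minus nitrate 0.0111 without the 6 extreme arrays, and 0.0252 on replicate 1 for the latter. The count of hormone tests within a supply was 0 with a pseudocount of 64 and 2 with the median or the model of pairs. The count over single backgrounds was 0 after quantile normalization and without the 6 arrays and 10 in the model of pairs. HHO2 minus HHO3 in averaged nitrate was 0.0164 with a pseudocount of 64 and 0.0352 after quantile normalization, and in nitrate only -0.055 without the 6 arrays. HHO1 minus HHO2 for ABA was 0.43 with a pseudocount of 64 (adjusted p = 0.0668).

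Leaving out 1 array gave -0.73 to -0.58 for HHO1 with ammonium (passing without any 1 of 6 arrays), -0.67 to -0.52 with IAA (passing without any 1 of 15) and -0.0935 to 0.0585 with kinetin. HHO2 ran from 0.76 to 1.01 for both ions and from -0.16 to 0.0891 for both ions minus nitrate. HHO3 ran from -0.0219 to 0.11 for IAA, 0.57 to 0.83 for nitrate only, 0.55 to 0.81 for both ions and -0.10 to 0.0617 for both ions minus nitrate. The 2 counts ran from 0 to 2 and 0 to 1. HHO2 minus HHO3 for nitrate ran from -0.12 to 0.0332, HHO1 minus HHO3 for ABA from 0.30 to 0.54, and HHO1 minus HHO2 for ABA from 0.55 to 0.77. That last call was lost without replicate 1 of IAA, IAA and ABA (both without nitrogen), ammonium with kinetin and ABA or with all 3 hormones, nitrate with all 3 hormones, or both ions with kinetin and ABA or with IAA and ABA. It was also lost without replicate 2 of ammonium alone, with kinetin, with IAA or with both, or of both ions with kinetin or with IAA.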
